A study of Nicotiana tabacum with 9 samples.

Results

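Genes whose products sense phosphate or release it from organic compounds were examined in young tobacco (Nicotiana tabacum) leaves. They were taken from the deposited table by protein domain description, in 4 families: proteins with an SPX domain, PHOSPHO-type phosphatases, purple acid phosphatases, and glycerophosphodiester phosphodiesterases. Of 69500 genes in the table, 95 carried one of these descriptions, and the 68 with a value of 1 or more in at least 3 of the 9 libraries were taken as members. Total RNA gave 3 libraries for each genotype (NC82, M21 and G27), all from the squaring period, in which tobacco sets its flower buds. The study asks how NtAN3, a gene for a transcriptional co-activator, acts on leaf size. NC82, the name of a flue-cured cultivar, served as the reference group. What was done to NtAN3 in M21 or in G27, with which promoter if any, and whether each is 1 line of descent is not stated in the labels. Nothing in them ties the replicates to separate plants, and the p-values therefore reflect only the spread between these samples, which may be technical.

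Plants short of phosphate switch on a set of genes through transcription factors of the PHR class. Proteins with an SPX domain bind inositol pyrophosphates, whose level follows the phosphate status of the cell, and those with no other domain hold PHR factors inactive when phosphate is plentiful. Under phosphate shortage, phosphatases and phosphodiesterases free phosphate from organic compounds, including membrane lipids, and galactolipids take the place of phospholipids. In Arabidopsis and rice, several SPX, purple acid phosphatase and glycerophosphodiesterase genes are themselves induced by phosphate shortage. No phosphate content of the leaves was used here.

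All levels below are the authors' normalized expression signal, scaled for depth and with no unit named in the header. Changes are log2 fold changes of the value plus 1, and a gene was called at a limma adjusted p under 0.05 over all 33188 genes tested. The M21 and G27 comparisons share the NC82 libraries, so their values stand side by side and do not support one another. In bulk leaf RNA, fewer cells of a type and less RNA per cell cannot be told apart. The members were chosen by their description and by their level in these same libraries. Of the 68, 4 would not have passed it without the NC82 libraries, 1 without the M21 libraries and 2 without the G27 libraries. Nearest to the threshold, the third-highest value was 1.03 for Nitab4.5_0000117g0040, which passed, and 0.84 for Nitab4.5_0002400g0090, which did not. Of the 27 genes left out, 6 were listed at 0 in all libraries.

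The libraries summed to 771390 to 790816. Their depths relative to NC82 replicate 1 were estimated from genes of low value. They were 0.944 to 1.20 in NC82, 0.794 to 0.897 in M21 and 0.85 to 0.991 in G27. Every M21 library was thus estimated as shallower than every NC82 library. On the third principal component, with 11.6% of the variance, replicate 1 of NC82, replicate 3 of M21 and replicate 1 of G27 scored 16.0 to 22.9 and the other 6 libraries -18.9 to -2.06. The component also spread the other libraries, with replicate 2 of M21 at -17.3 and replicate 2 of G27 at -18.9. Leaf markers were 107 genes of chlorophyll a/b binding proteins and the Rubisco small subunit, of which 97 were tested. The 107 were abundant, with sums of 73826 to 82778 in NC82, 75308 to 86010 in M21 and 78408 to 84213 in G27. A list of 287 cyclin, histone and MCM genes of dividing cells, 19 of them at 0 in all libraries, summed to 4662 to 4751 in NC82, 4666 to 5035 in M21 and 5007 to 5161 in G27. Of its 203 tested genes, 44 were higher and 13 lower in G27 than in NC82, where 7.87% and 6.05% of all genes tested were, and 18 were higher and 20 lower in M21, against 13% and 11.3%. A further list held 397 genes with MADS, pollen allergen or pollen Ole in the description, 182 of them at 0. It summed to 2058 to 2204 in NC82, 2090 to 2156 in M21 and 1904 to 2098 in G27. Of its 97 tested genes, 17 were higher and 26 lower in M21, and 7 were higher and 13 lower in G27. The part of either list in the results below was not tested. The SS18 family gene Nitab4.5_0007901g0050, of the family that holds AN3, stood at 0.28 ± 0.052 (SD, n = 3) in NC82, 5.04 ± 0.741 in M21 and 661.8 ± 85.5 in G27. It had the largest changes of the SS18 genes tested. Another, Nitab4.5_0001993g0030, had means of 8.38, 6.62 and 8.75. It was lower in M21 than in NC82 (limma adjusted p = 0.019) and than in G27 (0.016). The rest were not called in any comparison.

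More members were lower than higher in each line against NC82. In M21, 25 of 68 members (36.8%) were lower and 6 (8.82%) were higher, where 11.3% and 13% of all genes tested were called lower and higher, 24.3% in all. In G27, 28 members (41.2%) were lower and 2 (2.94%) were higher, where 6.05% and 7.87% of all genes tested were, 13.9% in all. With median-ratio scaling the balance over all genes turned, with 3993 higher and 4399 lower in M21 and 2355 higher and 2523 lower in G27, while the members stood at 7 higher and 26 lower in M21 and 2 higher and 28 lower in G27. In the main fit, without that scaling, the median log2 change of the members was -0.08 in M21 and -0.12 in G27. Over all genes tested it was 0.03 and 0.05. In the same fit, 61 members pass the filter without any 1 group. Among them, 22 were lower and 6 higher in M21, and 24 were lower and 2 higher in G27. The lower members were spread unevenly over the families, as described next. Family counts against NC82 stand beside these shares over all genes tested, 11.3% lower and 13% higher in M21 and 6.05% and 7.87% in G27. Members of a family share sequence, and how reads were divided among near-identical copies is not given in the sources used here.

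**Figure D1:**
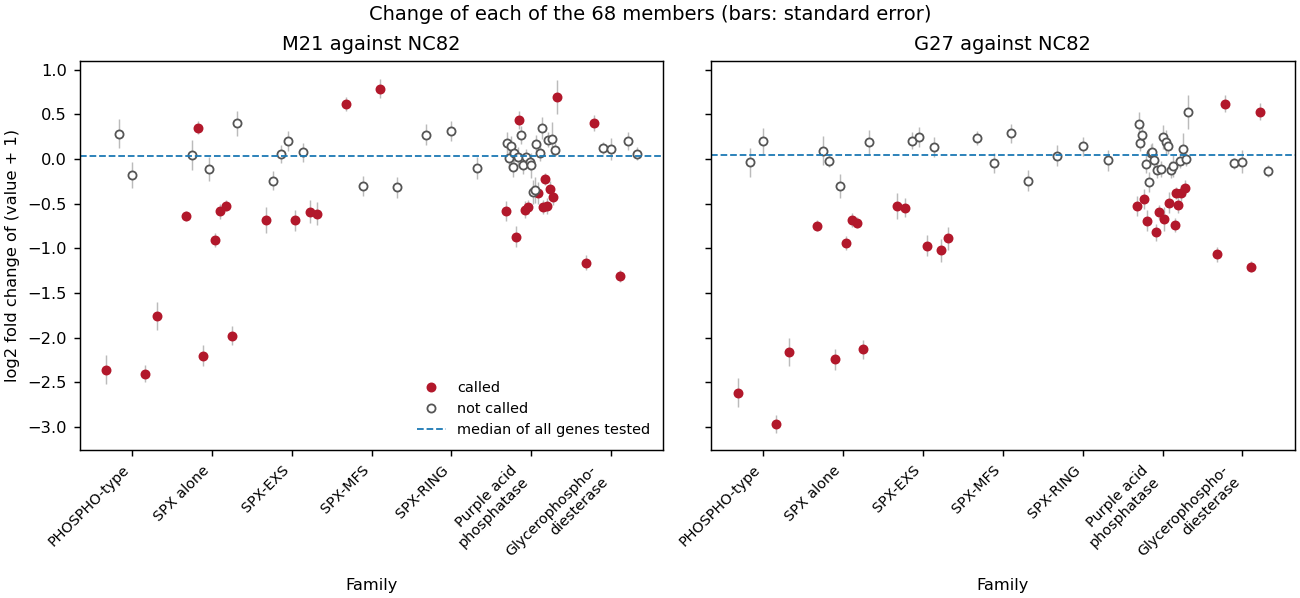
Log2 fold change of the value plus 1 (vertical axis) of each of the 68 members, by family, in M21 and in G27 against NC82. Filled points were called by limma, open points were not, grey bars are standard errors and the dashed line is the median of all genes tested. The points below -1.5 belong to 3 PHOSPHO-type phosphatases and 2 proteins with an SPX domain alone.

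PHOSPHO-type phosphatases are enzymes of the haloacid dehalogenase superfamily, and in Arabidopsis members of the family take phosphate from phosphocholine and phosphoethanolamine. Of 5 members, 3 were lower in both lines and 2 were called in neither. Nitab4.5_0014046g0010 stood at 126, 166 and 186 in the NC82 libraries, at 48.4, 48.0 and 41.5 in M21 and at 30.2, 43.1 and 31.4 in G27. Nitab4.5_0009182g0010 stood at 88.2, 96.5 and 108 in NC82, 16.7, 19.6 and 16.5 in M21 and 11.7, 12.3 and 10.7 in G27. Nitab4.5_0000255g0110 stood at 49.5, 64.6 and 72.2, then 11.2, 11.5 and 10.8, then 7.60, 12.2 and 8.27. For all 3 genes the NC82 range lay above the ranges of both lines, and NC82 replicate 1 was the lowest NC82 library. The M21 means were 28.9%, 18.1% and 18.0% of the NC82 means, and the G27 means were 21.9%, 11.9% and 15.1%.

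On the log2 scale Nitab4.5_0009182g0010 fell by 2.40 (SE 0.10) in M21 and by 2.96 (SE 0.10) in G27, with limma adjusted p of 2.3e-07 and 4.9e-08. Nitab4.5_0000255g0110 fell by 2.36 and 2.62 (SE 0.16 each, adjusted p = 4.8e-06 and 3.3e-06), and Nitab4.5_0014046g0010 by 1.75 and 2.16 (SE 0.16 each, adjusted p = 2.4e-05 and 8.5e-06). These were as large without the 3 libraries high on the third component, at -2.43 and -3.04, -2.49 and -2.65, and -1.84 and -2.23. Between the lines, only Nitab4.5_0009182g0010 of the 3 was called, with M21 above G27 by 0.56 (adjusted p = 0.0039) and no overlap of the ranges. For Nitab4.5_0014046g0010 and Nitab4.5_0000255g0110 the M21 and G27 ranges overlapped, and the 95% intervals of the log2 difference were 0.06 to 0.75 (adjusted p = 0.13) and -0.10 to 0.62 (adjusted p = 0.37).

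The other PHOSPHO-type members were at much lower levels. The group means in the order NC82, M21, G27 were 3.62, 3.13 and 4.39 for Nitab4.5_0000938g0050 and 2.34, 3.12 and 2.29 for Nitab4.5_0000713g0050. Against NC82 the ranges of both lines overlapped for each gene. The adjusted p in M21 and G27 was 0.43 and 0.43 for the first gene and 0.24 and 0.92 for the other. A family member below the filter, Nitab4.5_0000103g0270, was listed at 0 in all libraries.

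**Figure D2:**
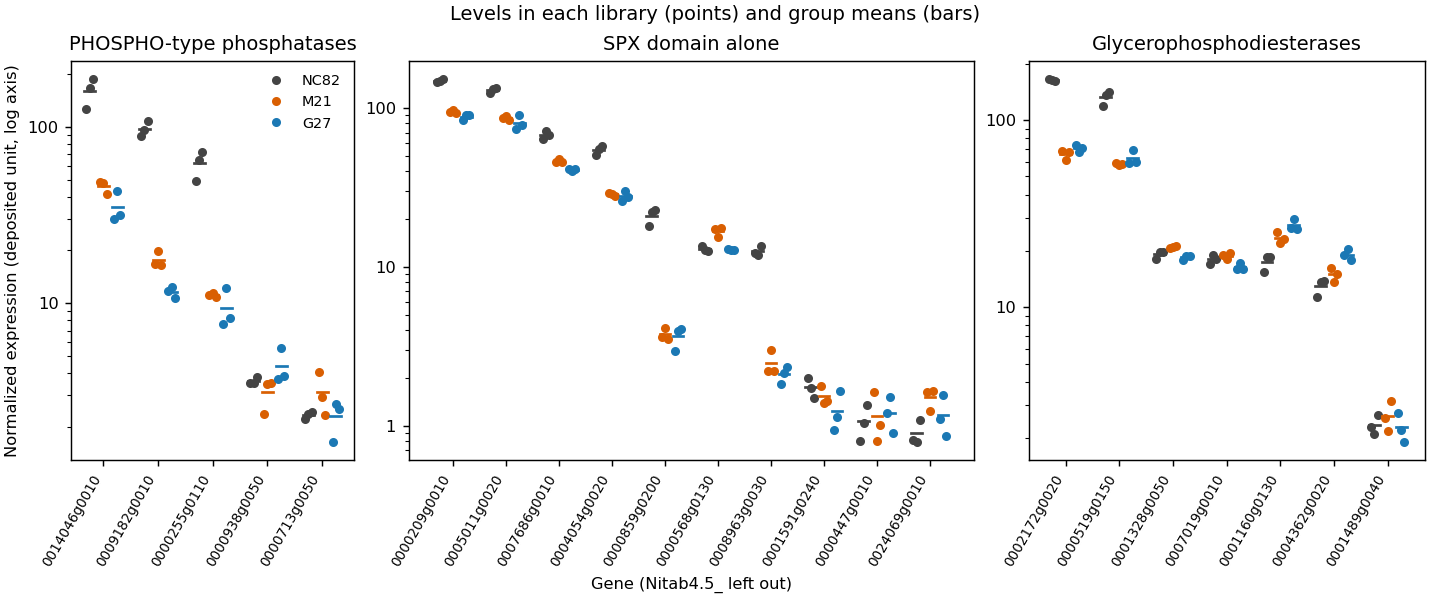
Normalized expression on a log axis of the PHOSPHO-type phosphatases, the proteins with an SPX domain alone and the glycerophosphodiester phosphodiesterases. Points are the 3 libraries of each genotype and bars are group means. The most abundant genes of each panel stand higher in NC82 than in M21 and G27, while many genes at low levels overlap.

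Proteins with an SPX domain and no other domain in the description are the class of the PHR inhibitors. Of 10 members, 6 were lower in each line, 1 was higher in M21, and the median log2 change was -0.55 in M21 and -0.70 in G27. Nitab4.5_0000859g0200 stood at 18.0, 22.0 and 22.7 in NC82, 3.63, 4.10 and 3.5 in M21 and 2.95, 3.95 and 4.03 in G27. Nitab4.5_0008963g0030 stood at 12.2, 11.9 and 13.5, then 2.20, 2.99 and 2.20, then 1.83, 2.14 and 2.34. These 2 genes were at 17.9% and 19.6% of their NC82 means in M21 and at 17.4% and 16.8% in G27, and NC82 did not overlap with either line. The log2 changes were -2.20 (SE 0.12) and -1.97 (SE 0.11) in M21, and -2.24 (SE 0.12) and -2.13 (SE 0.11) in G27, with adjusted p of 1e-06 to 1.4e-06.

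The other 4 lower members of the class were more abundant and changed less. Nitab4.5_0000209g0010 stood at 145, 148 and 152 in NC82, 93.6, 97.6 and 93.4 in M21 and 84.0, 89.7 and 90.1 in G27. Nitab4.5_0005011g0020 stood at 125, 131 and 134, then 85.9, 88.4 and 84.4, then 73.7, 90.8 and 77.6. Both had every NC82 library above every M21 and G27 library. Nitab4.5_0007686g0010 fell from a mean of 67.3 to 46.6 and 40.7, and Nitab4.5_0004054g0020 from 54.5 to 28.6 and 27.9. Over these 4 genes the log2 changes ran from -0.91 to -0.52 in M21 (adjusted p = 1.6e-05 to 0.00037) and from -0.94 to -0.69 in G27 (adjusted p = 1.4e-05 to 0.00017). None of the 6 differed between M21 and G27 by limma's adjusted p, of which the smallest was 0.081, for Nitab4.5_0007686g0010. Its difference was 0.19, with a 95% interval of 0.05 to 0.33.

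Nitab4.5_0000568g0130 went the other way in M21. It stood at 13.5, 12.8 and 12.6 in NC82, 17.4, 15.5 and 17.6 in M21 and 13.0, 12.7 and 12.8 in G27. It rose by 0.35 (SE 0.07) in M21 with an adjusted p of 0.0046, and M21 was above G27 by 0.37 (adjusted p = 0.0078). The difference from G27 had an adjusted p of 0.05, just short of a call, without the 3 libraries high on the third component. In G27 its change was -0.02, with a 95% interval of -0.17 to 0.14. The last 3 of the class were near the filter, with NC82 means of 1.74 (Nitab4.5_0001591g0240), 1.06 (Nitab4.5_0000447g0010) and 0.897 (Nitab4.5_0024069g0010), and adjusted p of 0.059 to 0.88 against NC82.

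SPX proteins with an EXS domain form the class of PHO1, which in Arabidopsis loads phosphate into the xylem. Of 8 members, 4 were lower in M21 and 5 in G27, and 0 were higher. All 5 were near the filter, and 4 of them (Nitab4.5_0010558g0040, Nitab4.5_0003073g0020, Nitab4.5_0000044g0620 and Nitab4.5_0000391g0390) passed it only with their NC82 values, so a lower level in the lines was built into their choice. The fifth, Nitab4.5_0013306g0030, passed without them. It stood at 2.48, 2.16 and 2.59 in NC82, 1.23, 1.06 and 1.41 in M21 and 1.17, 0.65 and 0.74 in G27. The NC82 libraries lay above both lines, with log2 changes of -0.61 (SE 0.13, adjusted p = 0.0048) and -0.89 (SE 0.13, adjusted p = 0.00069).

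Among the other 4, Nitab4.5_0010558g0040 stood at 2.49, 1.92 and 1.98 in NC82, 1.33, 0.77 and 1.17 in M21 and 0.59, 0.46 and 0.57 in G27. Nitab4.5_0003073g0020 had means of 1.84, 0.777 and 0.453, and Nitab4.5_0000391g0390 of 1.41, 1.05 and 0.653. In these 3 genes each G27 library lay below each M21 library, and the adjusted p of that difference was 0.054, 0.15 and 0.091. Nitab4.5_0000044g0620 had means of 1.54, 0.577 and 0.75, and its G27 call (adjusted p = 0.033) was lost with a pseudocount of 0.1 (0.069), without NC82 replicate 1 (0.11) or 3 (0.093), or without G27 replicate 1 (0.081), 2 (0.055) or 3 (0.096). Without the 3 libraries high on the third component, the G27 calls of Nitab4.5_0000044g0620 (adjusted p = 0.21) and Nitab4.5_0000391g0390 (0.053) and the M21 call of Nitab4.5_0010558g0040 (0.055) were lost. The most abundant members of the class behaved differently. Nitab4.5_0001591g0210 had means of 13.6, 15.7 and 16.3 and Nitab4.5_0000568g0160 of 11.7, 12.2 and 13.7, with overlapping ranges and adjusted p of 0.18 to 0.74. Nitab4.5_0005512g0030, with means of 2.19, 2.38 and 2.52, was not called either.

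Some of these genes share the number in their identifiers. Nitab4.5_0000568g0160 shares the number before the letter g with Nitab4.5_0000568g0130, the gene with an SPX domain alone that rose in M21. Nitab4.5_0001591g0210 shares its number with Nitab4.5_0001591g0240, also of the class with an SPX domain alone. In each of these groups the member with an EXS domain had an NC82 mean above 11 and was not called.

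SPX proteins with a major facilitator (MFS) domain are the class that in Arabidopsis and rice moves phosphate into and out of the vacuole. Of 4 members, 2 rose in M21, 0 were lower, and 0 were called in G27. Nitab4.5_0000360g0060 stood at 3.66, 4.04 and 3.67 in NC82, 6.64, 5.81 and 6.56 in M21 and 4.61, 4.78 and 4.5 in G27. Nitab4.5_0002228g0050 stood at 1.52, 1.88 and 2.01, then 4.02, 3.33 and 4.18, then 2.27, 2.74 and 2.24. In both genes the M21 libraries were highest, the G27 libraries lay between, and no ranges overlapped. They rose in M21 by 0.61 (SE 0.08, adjusted p = 0.00029) and 0.79 (SE 0.11, adjusted p = 0.00046), and M21 was above G27 by 0.38 (adjusted p = 0.011) and 0.50 (adjusted p = 0.014). In G27 against NC82 the changes were 0.23 (adjusted p = 0.081) and 0.29 (adjusted p = 0.12). The call between the lines was lost without the 3 libraries high on the third component (adjusted p = 0.088 and 0.094) and without M21 replicate 1 (0.056 and 0.06). For Nitab4.5_0002228g0050 it was also lost without M21 replicate 3 (0.055) or G27 replicate 3 (0.052). The others, Nitab4.5_0007891g0020 (means of 10.03, 7.84 and 8.35) and Nitab4.5_0001714g0180 (3.16, 2.36 and 3.04), were not called, with an adjusted p of 0.074 each in M21, where both had M21 below NC82 with no overlap.

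SPX proteins with a RING finger are the class of NLA, which in Arabidopsis marks phosphate transporters with ubiquitin. None of the 3 members was called by limma in any comparison. Nitab4.5_0000824g0020 had means of 2.94, 3.89 and 3.35, Nitab4.5_0002469g0090 of 1.63, 1.46 and 1.61, and Nitab4.5_0000117g0040 of 0.84, 1.22 and 0.887. Against NC82, M21 did not overlap for the first and the last of them, and their unadjusted p was 0.016 and 0.042. The last passed the filter only with its M21 values, so a higher level there was built into its choice.

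**Figure D3:**
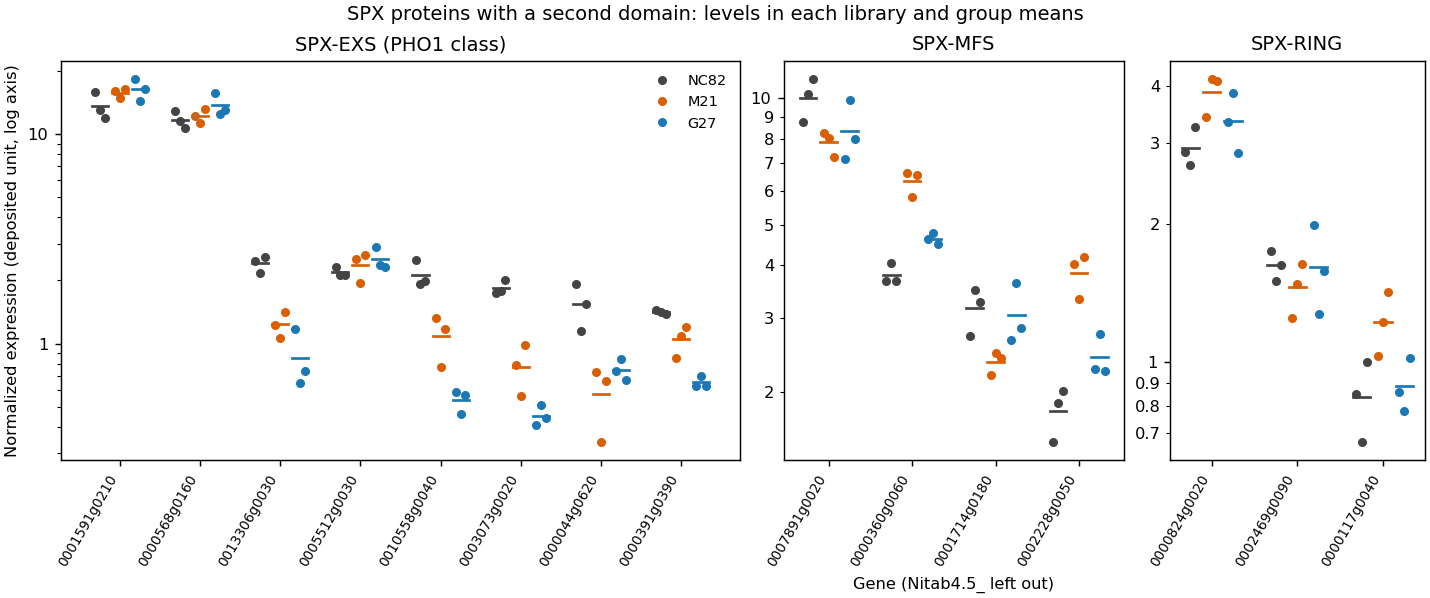
Normalized expression on a log axis of SPX proteins with an EXS, MFS or RING domain. Points are the 3 libraries of each genotype and bars are group means. The low EXS members, other than Nitab4.5_0005512g0030, stand lower in both lines. For 4 of them this was built into their choice, and Nitab4.5_0000391g0390 was not called in M21. Of the MFS members, 2 stand highest in M21.

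Purple acid phosphatases are metal enzymes that release phosphate from many organic compounds, often outside the cell or in the vacuole. Of 31 members, 10 were lower and 2 higher in M21, and 12 were lower and 0 higher in G27. All 10 that were lower in M21 were among the 12 in G27, and all 12 had an NC82 mean of 2.61 or more. Nitab4.5_0005625g0020 stood at 21.2, 23.5 and 23.7 in NC82, 15.9, 15.7 and 14.8 in M21 and 12.5, 14.6 and 12.8 in G27. Nitab4.5_0001840g0060 stood at 12.3, 13.7 and 13.5, then 8.26, 9.45 and 8.03, then 6.52, 8.0 and 6.60. Nitab4.5_0000589g0020 stood at 2.24, 2.62 and 2.98, then 1.26, 0.92 and 0.77, then 1.23, 1.18 and 1.29. In these 3 genes NC82 lay above both lines. The M21 means were 67.7%, 65.2% and 37.6% of NC82, and the G27 means were 58.1%, 53.5% and 47.2%.

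On the log2 scale these 3 genes fell by 0.53, 0.56 and 0.87 in M21 (adjusted p = 0.0007, 0.0014 and 0.00042) and by 0.74, 0.82 and 0.69 in G27 (adjusted p = 0.00011, 0.00017 and 0.0026). Nitab4.5_0002156g0050 (means of 16.2, 10.9 and 10.3 in NC82, M21 and G27), Nitab4.5_0006297g0010 (17.1, 11.6 and 11.7) and Nitab4.5_0000014g0300 (16.6, 10.7 and 11.3) were at 64.0% to 68.6% of NC82 in both lines. Their adjusted p ran from 0.0004 to 0.0096. Nitab4.5_0005919g0010 was at 14.0, 11.9 and 10.5, with an adjusted p of 0.036 in M21 and 0.0031 in G27. Its M21 call was lost under the replicate block (adjusted p = 0.069), without the 3 libraries high on the third component (0.091), without NC82 replicate 2 (0.11) or 3 (0.13), and without M21 replicate 1 (0.078), 2 (0.075) or 3 (0.094). The 5 further members lower in G27 changed by -0.67 to -0.33 there. Of these, the 3 also called in M21 changed by -0.42 to -0.34 in M21.

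The 2 purple acid phosphatases called higher in M21 were 6.45% of the family, below the 13% called higher over all genes tested. Nitab4.5_0001393g0130 stood at 4.81, 5.41 and 5.19 in NC82, 7.30, 6.68 and 7.91 in M21 and 6.39, 5.03 and 4.93 in G27. M21 lay above both other groups, and the gene rose by 0.43 against NC82 (SE 0.10, adjusted p = 0.0099) and was above G27 by 0.37 (adjusted p = 0.04). The other member that rose in M21 changed by 0.69 (adjusted p = 0.022). Nitab4.5_0004829g0020 (means of 1.79, 2.57 and 1.65) was higher in M21 than in G27 (adjusted p = 0.041) and Nitab4.5_0002659g0020 (1.28, 0.78 and 1.58) was lower (adjusted p = 0.038). The 3 calls between the lines were fragile, each lost in 9 or 11 of the 16 or 17 alternatives, with an adjusted p of up to 0.13, 0.15 and 0.12. They were each lost without M21 replicate 1 (adjusted p = 0.11, 0.13 and 0.12), M21 replicate 3 (0.13, 0.14 and 0.06) or G27 replicate 3 (0.13, 0.13 and 0.12). The first was also lost without NC82 replicate 2 (0.061) or 3 (0.057) or G27 replicate 2 (0.12). For Nitab4.5_0004829g0020 the same held without NC82 replicate 1 (0.052) or 2 (0.058) or G27 replicate 1 (0.053) or 2 (0.079), and for Nitab4.5_0002659g0020 without NC82 replicate 3 (0.052), M21 replicate 2 (0.096) or G27 replicate 1 (0.11). Nitab4.5_0002659g0020 passed the filter only with its G27 values, so a higher level there was built into its choice. The 15 members called in no comparison had NC82 means of 0.807 to 23.1.

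Glycerophosphodiester phosphodiesterases split the backbone left when phospholipids lose their fatty acids, giving glycerol-3-phosphate. Of 7 members, 2 were lower in both lines, 1 was higher in both, and 1 more was higher in G27. The share called higher was 14.3% in M21, near the 13% over all genes tested, and 28.6% in G27, against 7.87%. Nitab4.5_0002172g0020 stood at 165, 165 and 163 in NC82, 68.7, 61.2 and 67.3 in M21 and 73.4, 67.9 and 71.1 in G27. Nitab4.5_0000519g0150 stood at 119, 136 and 141, then 59.2, 57.7 and 58.5, then 59.0, 68.8 and 59.7. For these 2, the most abundant of the family, NC82 lay far above both lines, and M21 and G27 overlapped. They fell by 1.31 (SE 0.06) and 1.16 (SE 0.08) in M21 and by 1.20 (SE 0.06) and 1.07 (SE 0.08) in G27, with adjusted p of 7.1e-07 to 1.3e-05. The 95% intervals of M21 minus G27 were -0.25 to 0.04 and -0.27 to 0.09.

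Nitab4.5_0001160g0130 stood at 15.5, 18.5 and 18.6 in NC82, 25.3, 21.9 and 23.3 in M21 and 26.5, 29.6 and 26.2 in G27. All libraries of both lines were above NC82, with rises of 0.41 (adjusted p = 0.0076) and 0.62 (adjusted p = 0.00085). Nitab4.5_0004362g0020 had means of 12.9, 15.0 and 19.1, and rose in G27 by 0.53 (adjusted p = 0.0032). It was lower in M21 than in G27 with an adjusted p of 0.048, which was lost in 12 of 17 alternatives, including without any 1 M21 library (0.06 to 0.14), any 1 G27 library (0.066 to 0.14), NC82 replicate 2 (0.067) or NC82 replicate 3 (0.058). The 3 uncalled members had NC82 means of 2.35 to 19.2.

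M21 against G27 asked whether the lines differ from each other. Of 68 members, 6 (8.82%) were higher in M21 and 2 (2.94%) lower. Over all genes tested, 5.47% were called higher and 6.4% lower, 11.9% in all. The share of members called in either direction was near that share over all genes. The median log2 difference was 0.12, against -0.01 over all genes tested. The higher ones were Nitab4.5_0009182g0010 of the PHOSPHO type, Nitab4.5_0000568g0130 with an SPX domain alone, the MFS members Nitab4.5_0000360g0060 and Nitab4.5_0002228g0050, and the purple acid phosphatases Nitab4.5_0001393g0130 and Nitab4.5_0004829g0020. The lower ones were the glycerophosphodiester phosphodiesterase Nitab4.5_0004362g0020 and the purple acid phosphatase Nitab4.5_0002659g0020. The latter passed the filter only with its G27 values. Of all those called, only Nitab4.5_0009182g0010 was called under each alternative tried, with adjusted p of up to 0.019. The number called depended on single libraries, at 2 without M21 replicate 1, at 3 without M21 replicate 3 or G27 replicate 3, and at 5 without NC82 replicate 2 or 3.

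**Figure D4:**
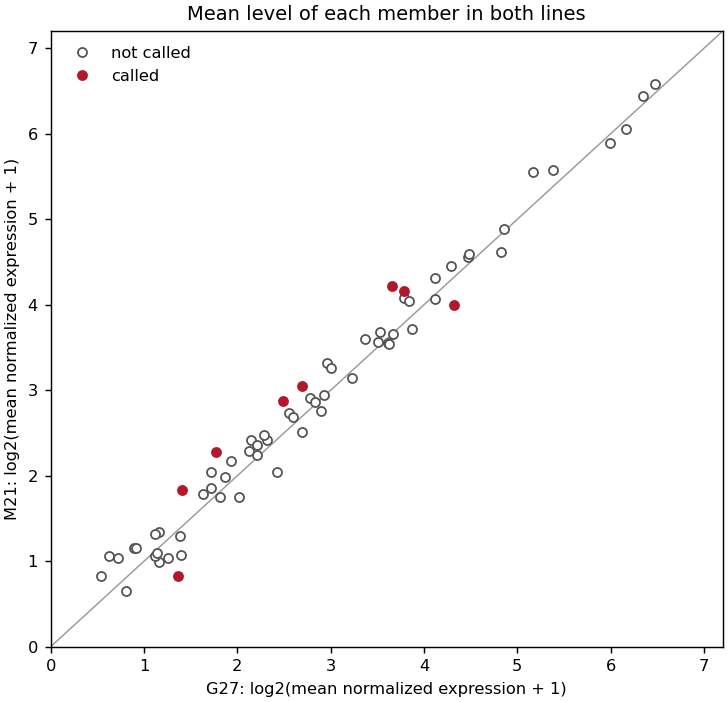
Mean level of each of the 68 members in G27 (horizontal) and M21 (vertical), as log2 of the mean plus 1, with the line of equality. Filled points are the 8 members called by limma between the lines, open points were not called. Points lie close to the line, and 6 of the 8 called lie above it.

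Other genes of the phosphate pathway were described by lists of description words. Genes in them are named after their values were seen. The counts of each list stand against the shares over all genes tested, 13% higher and 11.3% lower in M21 and 7.87% higher and 6.05% lower in G27. In the list for galactolipid and sulfolipid synthesis, 6 of 6 genes were lower in M21 and 5 of 6 in G27, with medians of -0.81 and -0.79. All carry the diacylglycerol glucosyltransferase domain of monogalactosyldiacylglycerol synthases, which make a galactolipid of plastid membranes. Nitab4.5_0002329g0110 stood at 22.8, 23.0 and 24.2 in NC82, 6.79, 7.23 and 7.58 in M21 and 8.52, 9.76 and 8.91 in G27, with no overlap. It fell by 1.57 and 1.28 (adjusted p = 7e-07 and 2.6e-06). Nitab4.5_0005949g0010, the most abundant, fell from a mean of 53.6 to 31.0 and 31.1 (adjusted p = 9.1e-06 and 1.3e-05). The G27 call of Nitab4.5_0001362g0020 (adjusted p = 0.02) was lost without NC82 replicate 2 (0.069), NC82 replicate 3 (0.09) or G27 replicate 1 (0.07). The uncalled gene in G27 was Nitab4.5_0000264g0080 (means of 24.3, 19.2 and 20.9, adjusted p = 0.066). Nitab4.5_0002329g0110 and Nitab4.5_0002659g0030 share their identifier numbers with the purple acid phosphatases Nitab4.5_0002329g0030 and Nitab4.5_0002659g0020, which were not called against NC82.

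Of 23 other acid phosphatases, 11 were lower and 0 higher in M21, and 9 were lower and 0 higher in G27, with medians of -0.24 and -0.30. The class B acid phosphatase Nitab4.5_0000300g0180 stood at 236, 247 and 250.0 in NC82, 117, 123 and 114 in M21 and 98.7, 103 and 104 in G27. It fell by 1.04 and 1.25, with adjusted p of 1.6e-06 and 9.1e-07. Of 24 factors with the MYB-CC domain, the class of PHR, 6 were lower and 1 higher in M21, and 8 were lower and 1 higher in G27. Nitab4.5_0001534g0020 stood at 20.0, 20.5 and 20.9, then 8.87, 8.55 and 9.83, then 9.57, 9.18 and 9.13, with changes of -1.09 and -1.06 (adjusted p = 3.5e-06 and 6.2e-06). Which of these factors corresponds to PHR is not given by the descriptions.

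The phosphate transporter words matched mostly sugar and triose phosphate transporters, 84 of 94 tested genes, of which 19 were higher and 9 lower in M21 and 8 higher and 7 lower in G27. Among the other 10, 2 were higher and 2 lower in each line. The phosphate permease Nitab4.5_0001005g0050, of the class of phosphate uptake carriers, stood at 13.2, 19.1 and 21.7 in NC82, 33.9, 33.3 and 32.7 in M21 and 26.6, 36.2 and 27.5 in G27. It rose by 0.88 and 0.72 (adjusted p = 0.0024 and 0.011). Another permease with the same identifier number, Nitab4.5_0001005g0070, had means of 0.38, 1.94 and 1.12 (adjusted p = 0.00027 and 0.013). Its G27 call was lost without the 3 libraries high on the third component (0.057). It passed the filter only with its M21 values, so a higher level there was built into its choice. In the other direction, the permease Nitab4.5_0009483g0010 had means of 2.25, 0.947 and 0.687 (adjusted p = 0.0038 and 0.0011). Nitab4.5_0010104g0010, described as a phosphate transporter, stood at 1.88, 1.35 and 1.44 in NC82 and at 0.02 to 0.29 in the 6 libraries of the lines (adjusted p = 9.5e-05 and 0.00022). Both lower genes passed the filter only with their NC82 values, so a lower level in the lines was built into their choice.

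The remaining lists went both ways. Of 95 phospholipase, lipid phosphatase and phosphoesterase genes, 15 were higher and 12 lower in M21, and 12 were higher and 15 lower in G27. These are 15.8% and 12.6% in M21, near the shares over all genes, and 12.6% and 15.8% in G27. A phospholipase D, Nitab4.5_0002612g0100, stood at 73.7, 69.5 and 65.0 in NC82, 23.8, 19.3 and 25.2 in M21 and 27.7, 24.3 and 25.2 in G27. It fell by 1.57 and 1.40 (adjusted p = 3e-06 and 8e-06), while the phospholipase D Nitab4.5_0013045g0020 rose from a mean of 2.48 to 5.57 and 6.32 (adjusted p = 0.00036 and 0.00017). Of 7 T2 ribonucleases, which break down RNA, 2 were higher and 2 lower in M21, and 1 was lower in G27. That gene, Nitab4.5_0000040g0350, had means of 3.92, 0.847 and 0.66 (adjusted p = 0.00083 and 0.00069), and it too passed the filter only with its NC82 values. Of 85 genes of inositol phosphate and phosphoinositide metabolism, 11 were higher and 7 lower in M21, and 1 was higher and 6 lower in G27. These are 12.9% and 8.24% in M21, near the shares over all genes for higher calls, and 1.18% and 7.06% in G27. Nitab4.5_0000353g0150, an inositol tetrakisphosphate kinase, fell from 5.34 to 2.67 and 2.37 (adjusted p = 0.0006 and 0.00032). Nitab4.5_0000172g0510, with a phosphatidylinositol 3-/4-kinase domain, rose from 11.9 to 15.6 and 15.9 (adjusted p = 0.0064 and 0.0078). Of 28 pyrophosphatases, 4 (14.3%) were lower and 0 higher in M21, and 4 (14.3%) were higher and 2 (7.14%) lower in G27. The shares called lower were near those over all genes. The inorganic pyrophosphatase Nitab4.5_0002077g0150 fell from 115 to 73.0 and 77.4 (adjusted p = 0.00013 and 0.00043). Another, Nitab4.5_0008664g0030, had means of 2.76, 3.73 and 6.20, rose in G27 by 0.94 (adjusted p = 0.00051), and was lower in M21 than in G27 by a log2 difference of -0.61 (adjusted p = 0.011). Without the 3 libraries high on the third component, the adjusted p of that difference was 0.098.

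**Figure D5:**
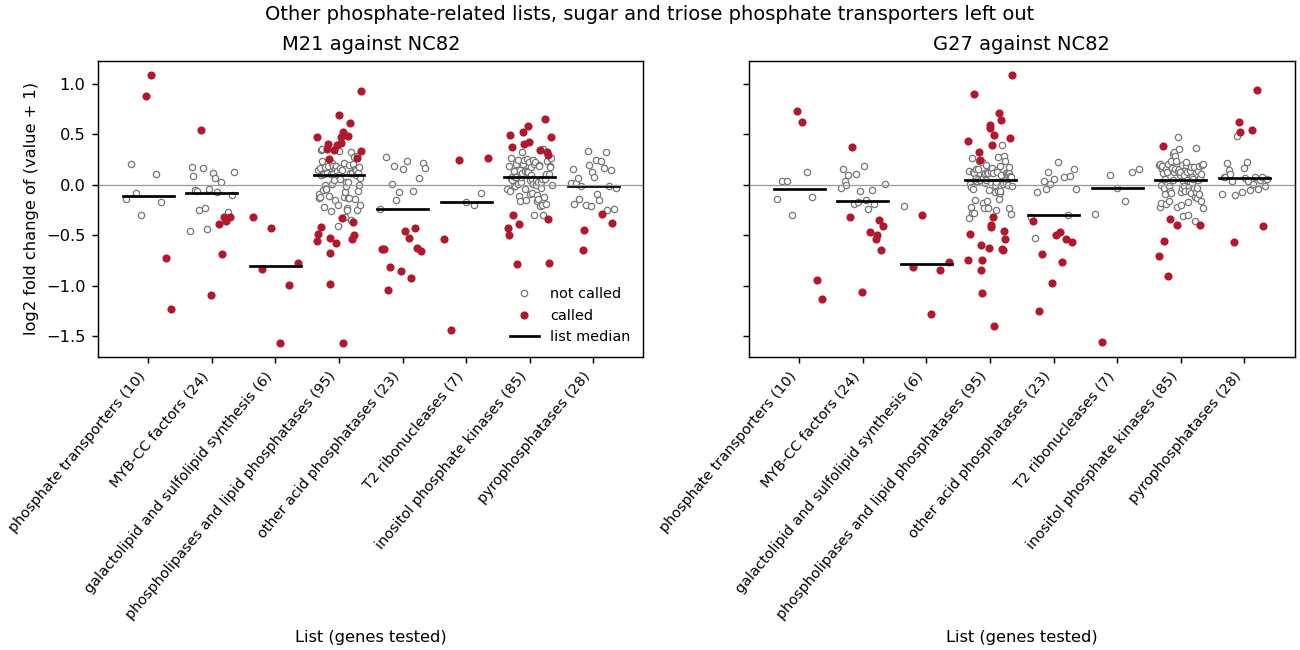
Log2 fold change of the value plus 1 (vertical axis) of the genes of each further list in M21 and in G27 against NC82, with the sugar and triose phosphate transporters left out. Filled points were called by limma, open points were not, and black bars are list medians. The galactolipid list lies wholly below 0, and the wider lists spread to both sides of 0.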

How the data were processed

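Total RNA from young leaves was sequenced as paired-end libraries, per the labels' protocols. HISAT2, StringTie and RSEM were used, per the submitters' processing notes. What each did, and on which genome build, annotation and strand setting, is not given in the sources used here. For 69500 genes the authors deposited 1 normalized expression signal per gene and library, with no unit in the header, and gave a gene name for 0 genes. The 3 columns of group means were left out of the tests.

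The log2 of the value plus 1 of 33188 genes (1 or more in at least 3 libraries) was fitted over all 9 libraries with limma 3.58.1 in R 4.3.3 (empirical Bayes, mean trend). Tests were two-sided, with Benjamini-Hochberg adjustment across every gene tested. The method was tested on simulated data. Figures used Python 3.11.15 and matplotlib 3.10.9. Read totals were not given. Relative depths came from the step that 1 read is worth, over 101 to 227 low genes per pair of libraries.

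Members and lists were chosen with earlier results of these data known. All SPX and PHOSPHO-type members were named. So was each called member of a family with 12 or fewer called, or the 6 with the smallest p per comparison in a larger family. Alternatives were other pseudocounts, filters and scaling, a replicate block, and left-out libraries. No sequences of these genes were used here.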

Additional observations from a re-analysis of the deposited data

How the results depend on the processing

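Of 60 calls of named members, 49 were kept under every alternative in which the gene was tested, and 0 reversed. The filter of 5 or more tested only 45 of the 60. Some of the kept calls belong to EXS members that passed the filter for members only with their NC82 values. Purple acid phosphatases were named by the smallest p, so weaker calls of that family are not among the 60. Among those left out, Nitab4.5_0007416g0060 was called lower in both lines. It lost both calls without the 3 libraries high on the third component (limma adjusted p = 0.064 in M21 and 0.059 in G27). The other calls left out were kept in that setting. The members called in M21 against NC82 (31) and in G27 against NC82 (30) stayed within 1.5 times of those counts, at 27 to 35 and 25 to 30 when 1 library was left out. In M21 against G27 the 8 called members became 4 with no filter beyond a value above 0 and 5 with the replicate block. They became 3 without the 3 libraries high on the third component, and 2 to 8 when 1 library was left out. A filter of 5 or more left only 39 members to test, of which 5 were called. The cause of these changes was not tested. Over all genes tested, the 4620 called in G27 against NC82 became 3025 with a filter of 5 or more, which tests 19264 genes, and the 3941 called in M21 against G27 became 2301 without M21 replicate 1. The labels do not say what a replicate number marks. With group means removed, correlations between libraries of different genotypes ran from -0.22 to 0.34 for the same number. For other numbers they ran from -0.34 to 0.28. With so few libraries these values cannot show whether the numbers pair the libraries. The block gave 32 called members in M21 against NC82, 30 in G27 against NC82 and 5 in M21 against G27. Median-ratio scaling ended none of the 60 calls of named members, and gave 33 called members in M21 against NC82, 30 in G27 against NC82 and 9 in M21 against G27. With 3 libraries a group and no read counts, members near a value of 1 rest on few reads, and no counting interval can be given.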
